A study of Mus musculus with 32 samples.

Results

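The comparison described here is that of *Mtm1* KO with WT tibialis anterior (TA) muscle at postnatal day 14 (P14), and its members are the RNAseq libraries whose labels give that age, 8 of 32 in the series. They are 4 WT and 4 KO libraries, numbered 1 to 4 in each genotype. All came from C57BL6/J mice, and nothing but genotype differs between the groups in the labels. The KO mice carried the *Mtm1*-/y genotype, a germline deletion of exon 4 present in all cells and not only in muscle, in a line made on a 129S2PAS background and later bred onto C57BL6/J. The other 24 libraries hold the same genotypes at P1, P21 and P35, and are used to compare the P14 differences with those of the other ages and, in WT, to give the change of each gene with age. The study treats P14 as an age before overt weakness, so the comparison addresses which transcripts were altered before it.

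Myotubularin, the product of *Mtm1*, is a phosphatase that removes a phosphate from inositol lipids of endosomal membranes, and its loss causes X-linked myotubular myopathy. Affected fibres are small, carry central nuclei and have disordered triads, the junctions of transverse tubule and sarcoplasmic reticulum at which excitation is coupled to calcium release. In the mouse, hindlimb muscle passes in the first weeks of life from embryonic and neonatal myosins to the adult fast isoforms, while the nerve terminals and triads mature, so a P14 muscle is itself changing from day to day.

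Expected counts summed to between 58004300 and 69358320 per library, with the genotypes interleaved, and 15728 genes passed the filter on low counts. Levels are given as CPM, the counts of a gene relative to those of its library, with library sizes scaled by the TMM method. All 8 libraries held counts of the 4 Y-linked genes examined and at most 3 counts of *Xist*, as male muscle should. The sarcomeric genes that define fast muscle were abundant, with *Myh4* between 32140 and 62630 CPM and *Acta1* between 24360 and 34710 CPM. Bulk RNA cannot tell fewer cells of a type from less RNA per cell. The labels do not say which mice were litter mates, and a number in common joins a WT to a KO library only through the check described with the methods.

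*Mtm1* itself (ENSMUSG00000031337, chrX:71210767-71315691, GRCm38, + strand) was the gene with the smallest *P*-value in edgeR without regard to replicate number. WT libraries 1 to 4 held 18.6, 17.5, 18.6 and 19.8 CPM, and KO libraries 1 to 4 held 3.53, 4.08, 3.70 and 3.41 CPM. The groups were far apart, with a log2 fold change of -2.34 ± 0.078 (SE, n=4 per genotype), adjusted *P*=5.27e-06 in edgeR. Transcript thus remained at a 5.05-fold lower level. The exon removed in this line is exon 4 of 15 of transcript ENSMUST00000033700.11, a coding exon at chrX:71234852-71234946 on the + strand. It is shown because its length, 95 bases, leaves a remainder of 2 when divided by 3, so its loss shifts the reading frame.
Mtm1 exon 4: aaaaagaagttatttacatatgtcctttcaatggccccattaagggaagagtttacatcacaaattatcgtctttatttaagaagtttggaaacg

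Without regard to replicate number, 5 genes were differentially expressed (DEGs: edgeR quasi-likelihood test, adjusted *P* under 0.01 and at least a 1.5-fold change), which is 0.0318% of the genes tested. *Mtm1* was lower and 4 genes were higher in KO. *Mustn1*, a small nuclear protein of the musculoskeletal system, was the tightest of them. It stood at 35.5, 35.4, 33.4 and 37.0 CPM in WT and at 57.6, 57.0, 56.1 and 57.1 CPM in KO (log2 fold change 0.69 ± 0.049, adjusted *P*=0.00196). *Myl4*, the embryonic and atrial essential myosin light chain, stood at 14.8, 14.0, 13.7 and 12.3 CPM in WT against 24.3, 26.3, 25.9 and 29.8 CPM in KO (log2 fold change 0.96 ± 0.082, adjusted *P*=0.0046). In both genes each KO library exceeded each WT library.

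*Cilp*, an extracellular matrix protein best known from cartilage, had the largest of the 4 increases. WT libraries held 83.8, 89.6, 121.9 and 81.4 CPM against 276.7, 332.5, 473.7 and 346.3 CPM in KO (log2 fold change 1.92 ± 0.19, adjusted *P*=0.00935). *Htra4*, a secreted serine protease of low abundance here, rose from 0.819, 0.924, 1.14 and 0.833 CPM to 2.81, 3.34, 3.18 and 4.19 CPM (log2 fold change 1.86 ± 0.17, adjusted *P*=0.00568). Again the groups did not overlap. These 4 calls were close to the threshold with 4 animals per genotype. *Mtm1* alone stayed called when each library was left out in turn, *Mustn1* was lost on leaving out any of WT replicates 1, 2 and 3 and KO replicates 2 and 3, *Myl4* on leaving out those or WT replicate 4, *Htra4* on leaving out those, WT replicate 4 or KO replicate 1, and *Cilp* on leaving out any library, and the count then lay between 1 and 4.

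**Figure D1:**
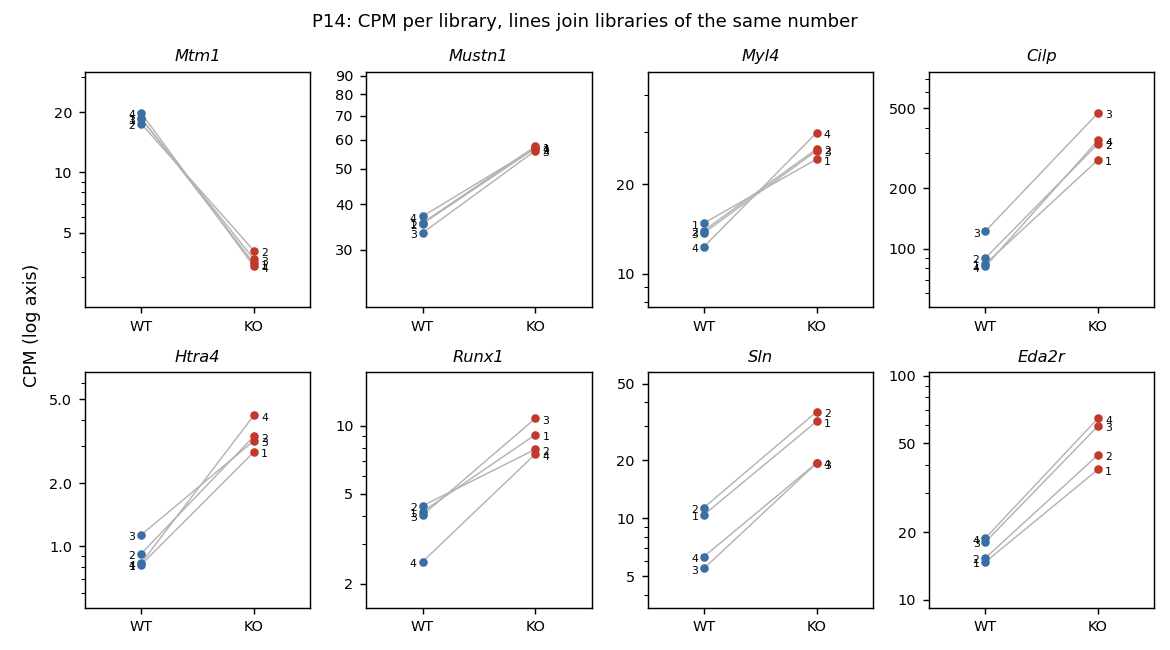
CPM (log axis) of 8 genes in the 4 WT (blue) and 4 KO (red) libraries at P14, with the replicate number beside each point and a grey line joining libraries of the same number. *Mtm1* falls and the other 7 genes rise along all 4 lines, and for all 8 genes the WT and KO points do not overlap.

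WT and KO libraries of the same number deviated together from their genotype means (r=0.30 to 0.73 over genes), although WT library 2 correlated best with KO library 1 and KO library 1 with WT library 2, so numbers 1 and 2 were not told apart. With replicate number as a block in the same test, the median standard error of a log2 fold change went from 0.124 to 0.0678, and 98 genes were called (0.623% of those tested), 67 higher and 31 lower in KO. All 5 DEGs above were among them. The other 93 had edgeR adjusted *P* between 0.0119 and 0.95 without the block, 6 of them under 0.05. Their calls in edgeR thus rest on the pairing of the libraries. DESeq2 without the block called 53 genes, of which 50 were among the 98, all 5 DEGs included. Many of the 93 thus passed in DESeq2 without the pairing. With the block DESeq2 called 103 genes, of which 91 were among the 98. In each of the 98, all 4 KO libraries differed from the WT library of the same number in one direction. The WT and KO groups did not overlap in 60 of the 98, 43 higher and 17 lower, against 4.82% of all genes tested. That gap is set by the choice of the 98 on the same libraries. The annotation of 22 of the 98 overlaps another tested gene, for 18 on the opposite strand, and how such reads were divided is not known.

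**Figure D2:**
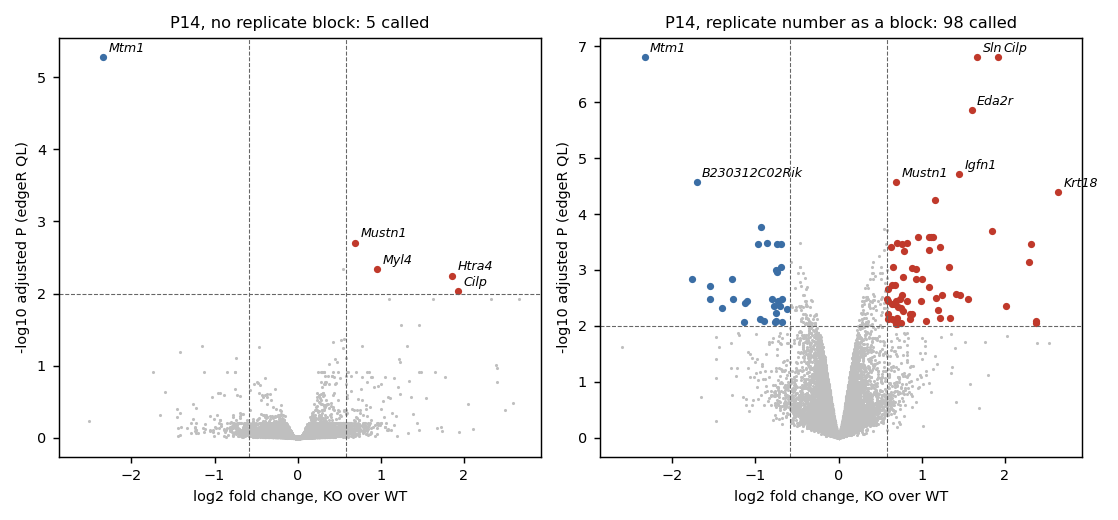
Log2 fold change (KO over WT) against -log10 adjusted *P* for the 15728 genes tested at P14, without (left) and with (right) replicate number as a block; dashed lines mark the thresholds and coloured points the called genes (red higher, blue lower in KO). The 5 called genes on the left become 98 on the right.

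From here on, a gene is said to have risen or fallen where it passed with the block. Its edgeR adjusted *P* without the block is given as the unblocked value. Of genes named in the text, DESeq2 without the block called the DEGs above, *Krt18*, *Fam83g*, *Gdf5*, *Anxa8*, *Sln*, *Eda2r*, *Il20rb*, *Rassf7*, *Igfn1*, *Hsf2bp* and *Rrad*. It also called *Pdzd3*, *Runx1*, *Csrp3*, *Cpne2*, *Tubb6*, *Timp1*, *Myom3*, *Npr3*, *Tnfrsf23*, *Nog*, *Nlrc3* and *Uchl1*. Of the fallers it called *Actc1*, *C130080G10Rik*, *Chodl*, *Calcr*, *Car2*, *Mical2*, *Erfe*, *Nt5c1a*, *Crybb1*, *Gm43302*, *Mybphl*, *Gbp10* and *Rmi2*. Over all genes tested, 0.426% rose and 0.197% fell, which is the background for the counts of each list. The lists were chosen with earlier results of these data known, so a count above that background is not independent support. Of the 98, 86 are protein coding, and the scaling sets their split. With library totals in place of TMM, under which the middle gene's log2 fold change went from 0.00029 to 0.088, the blocked test called 114 genes, 92 higher and 22 lower, including 89 of the 98.

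Genes of the embryonic and neonatal sarcomere moved in both directions. Of the 12 tested members of the list of embryonic, neonatal and cardiac isoforms, 3 rose and 1 fell, against 0.426% and 0.197% of all genes, and the median log2 fold change of the list was 0.37. *Myh8*, the neonatal myosin heavy chain, varied more between replicate numbers than between genotypes. WT libraries 1 to 4 held 366.4, 488, 139.5 and 64.6 CPM, and KO libraries 1 to 4 held 1301, 1009, 258.6 and 85.5 CPM. Each KO library was above the WT library of its number, but KO libraries 3 and 4 were below WT libraries 1 and 2, and the log2 fold change was 1.05 ± 0.17 (adjusted *P*=0.00837, unblocked 0.867). *Myh3*, the embryonic heavy chain, kept the same order of numbers. It read 43.4, 59.2, 27.9 and 20.9 CPM in WT against 117.6, 101.7, 62.6 and 30.9 CPM in KO (log2 fold change 1.00 ± 0.11, adjusted *P*=0.00148, unblocked 0.709).

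*Actc1*, the cardiac actin that fetal skeletal muscle also uses, went the other way. It fell from 4312, 3880, 5418 and 3820 CPM in WT to 2072, 2466, 2996 and 2964 CPM in KO without overlap, with a log2 fold change of -0.73 ± 0.10 (adjusted *P*=0.00364, unblocked 0.26). The noncoding *C130080G10Rik*, annotated beside *Actc1* on the opposite strand, fell with it (log2 fold change -1.54 ± 0.18, adjusted *P*=0.00193, unblocked 0.231). WT libraries held 15.8 to 41.5 CPM of it and KO libraries 5.77 to 10.9 CPM. A further annotated gene, *A530058N18Rik*, spans parts of both, so the division of reads among them is uncertain. Because *Actc1* was the most abundant member, the summed level of the list was lower in every KO library (4040 to 4670 CPM) than in every WT library (4840 to 6670 CPM), although the median member was higher.

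The windows before the RefSeq start sites of *Myh3* and *Actc1* are shown because these isoforms of one developmental programme moved apart. Both are the 250 bases upstream of the RefSeq start (GRCm38.p6), *Myh3* at chr11:67078050-67078299 on the + strand and *Actc1* at chr2:114052876-114053125 on the - strand, written 5′ to 3′ along the gene. The GENCODE annotation places the start of *Actc1* further upstream, at chr2:114053548, so the *Actc1* window lies inside the gene as annotated there. Capitals mark the letters TGTGGT (bound by RUNX factors) and TATAAA in *Myh3* and a CArG box (bound by SRF) in *Actc1*, searched on both strands.
Myh3 promoter: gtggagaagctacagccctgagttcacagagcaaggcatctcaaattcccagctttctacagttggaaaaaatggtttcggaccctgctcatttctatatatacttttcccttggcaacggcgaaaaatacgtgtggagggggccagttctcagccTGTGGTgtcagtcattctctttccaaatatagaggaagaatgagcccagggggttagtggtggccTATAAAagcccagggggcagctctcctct
Actc1 promoter: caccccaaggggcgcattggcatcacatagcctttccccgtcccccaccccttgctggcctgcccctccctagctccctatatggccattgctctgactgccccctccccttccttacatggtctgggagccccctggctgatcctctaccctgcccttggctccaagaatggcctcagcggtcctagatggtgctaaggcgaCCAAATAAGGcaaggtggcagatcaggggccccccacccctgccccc
Of 69 RefSeq promoters matched to 53 of the 67 risen genes, 15.9% held TGTGGT and 15.9% TATAAA, against 10.9% and 6.88% of 14638 promoters of tested genes. Of 28 promoters matched to 21 of the 31 fallen genes, 3.57% held TGTGGT and 14.3% TATAAA. A CArG box was in 2.9% of the promoters of risen genes, 7.14% of those of fallen genes and 1.23% of all. The letters CANNTG (E-box) were in 63.8%, 60.7% and 58.5%, and TGANTCA (AP-1) in 4.35%, 7.14% and 4.66%. These are descriptions of letters and not of binding.

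Among 12 fast-fibre sarcomere genes, *Mybpc2*, the fast isoform of myosin-binding protein C, fell and no gene rose (list median log2 fold change -0.12). *Mybpc2* read 4268, 3786, 5427 and 5916 CPM in WT against 2081, 2491, 3713 and 4106 CPM in KO (log2 fold change -0.68 ± 0.089, adjusted *P*=0.00325, unblocked 0.656). *Myh4*, the most abundant fast myosin, had a log2 fold change of -0.35 ± 0.11 and did not pass (adjusted *P*=0.102). *Myh2*, the fast oxidative myosin, had a log2 fold change in the other direction, 0.66 ± 0.14, and did not pass either (adjusted *P*=0.0279, unblocked 0.578), with 1609, 2017, 1287 and 1774 CPM in WT against 3232, 3179, 2559 and 1759 CPM in KO. None of the 10 slow-fibre genes was called, with a list median of 0.15. Outside the lists, the noncoding *2310065F04Rik*, which lies among the clustered myosin heavy chain genes, fell (log2 fold change -0.94 ± 0.069, adjusted *P*=0.000169, unblocked 0.656), from 24.2 to 50.8 CPM in WT to 11.4 to 29.1 CPM in KO. *Myom3*, an M-band protein, rose from 44.7 to 68.9 CPM to 84.7 to 124.6 CPM (log2 fold change 0.86 ± 0.13, adjusted *P*=0.00611, unblocked 0.123).

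**Figure D3:**
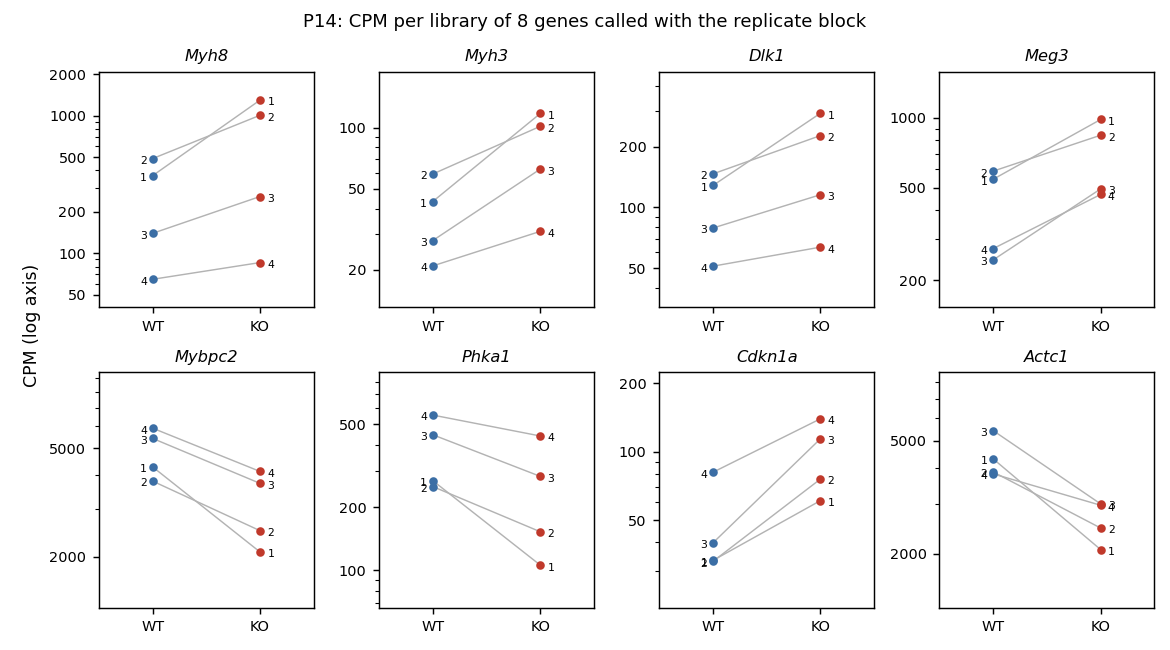
CPM (log axis) of 8 genes called with the replicate block, in WT (blue) and KO (red) libraries at P14, with lines joining libraries of the same number. *Myh8*, *Myh3* and *Dlk1* run from high in numbers 1 and 2 to low in number 4 in both genotypes, and KO is above WT on each of their lines.

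Of 25 tested genes of the stretch and Z-disc response, 3 rose, none fell and 9 were lower in KO (list median log2 fold change 0.15). The risers were *Mustn1*, *Csrp3* and *Ankrd2*. *Csrp3*, muscle LIM protein of the Z-disc, read 25.4, 35.3, 21.9 and 46.4 CPM in WT against 75.3, 68.6, 46.6 and 88.5 CPM in KO (log2 fold change 1.14 ± 0.091, adjusted *P*=0.000253, unblocked 0.282). The lowest KO library stood just above the highest WT library. *Ankrd2*, a stretch-responsive ankyrin repeat protein, read 16.2, 25.3, 15.2 and 51.8 CPM in WT against 46.0, 47.3, 35.1 and 95.6 CPM in KO (log2 fold change 1.12 ± 0.091, adjusted *P*=0.000253, unblocked 0.711). There, WT library 4 exceeded 3 of the 4 KO libraries. *Igfn1*, a large immunoglobulin-domain protein of the Z-disc, rose from 21.1 to 30.9 CPM to 56.4 to 94.0 CPM without overlap (log2 fold change 1.45 ± 0.080, adjusted *P*=1.95e-05, unblocked 0.0271).

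Among 27 genes of the triad and of excitation-contraction coupling, only *Sln* was called, and it rose. In edgeR with the block, 21 of the 27 had an unadjusted *P* under 0.05, against 21.8% of all genes. Without the block 4 did, against 6.82%. Over the list, 11 genes were higher and 16 lower in KO. Sarcolipin is a small inhibitor of the calcium pump of the sarcoplasmic reticulum. Its level was 10.4, 11.4, 5.49 and 6.32 CPM in WT against 31.8, 35.7, 19.3 and 19.4 CPM in KO. The fold was alike at each number, so the log2 fold change of 1.67 ± 0.053 had adjusted *P*=1.57e-07 with the block and 0.124 without it. *Cav3*, the muscle caveolin, passed the *P*-value threshold but not the fold (log2 fold change 0.29 ± 0.041, adjusted *P*=0.00423). *Ryr1*, the calcium release channel, and *Atp2a1*, the pump itself, had log2 fold changes of -0.37 ± 0.093 and -0.41 ± 0.10 (adjusted *P*=0.0478 and 0.0432), short of the threshold. The list's median was -0.13.

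Genes that muscle raises on denervation, with components of the neuromuscular junction, had a median log2 fold change of 0.25, and 22 of 26 were higher in KO. Of them 2 rose and none fell. *Runx1*, a transcription factor strongly raised in denervated muscle, read 4.16, 4.42, 4.02 and 2.50 CPM in WT against 9.13, 7.87, 10.8 and 7.50 CPM in KO (log2 fold change 1.22 ± 0.11, adjusted *P*=0.000396, unblocked 0.0822). *Cpne2*, a calcium-dependent membrane-binding protein, read 9.36, 11.3, 10.9 and 8.82 CPM in WT against 18.9, 19.7, 23.1 and 24.5 CPM in KO (log2 fold change 1.09 ± 0.089, adjusted *P*=0.000261, unblocked 0.0119). Neither gene's groups overlapped. Outside the list, the nerve growth factor receptor *Ngfr* rose (log2 fold change 0.64 ± 0.077), as did the neurotrophic ligand *Gdnf* (0.72 ± 0.10) and the ubiquitin hydrolase *Uchl1* (0.60 ± 0.081), with adjusted *P* of 0.00187, 0.00453 and 0.00358 (unblocked 0.76, 0.414 and 0.124). *Rrad*, a small GTPase that inhibits calcium channels, rose from 3.95 to 7.09 CPM in WT to 12.7 to 14.3 CPM in KO (log2 fold change 1.33 ± 0.14, adjusted *P*=0.000903, unblocked 0.0537).

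Of 44 tested genes of the p53 response and apoptosis, 4 rose and none fell, against 0.426% and 0.197% of all genes, while the median of the list was 0.053. *Eda2r*, a member of the tumour necrosis factor receptor family, led them. It read 14.8, 15.4, 18.1 and 18.8 CPM in WT against 38.2, 44.4, 59.6 and 64.6 CPM in KO (log2 fold change 1.60 ± 0.066, adjusted *P*=1.38e-06, unblocked 0.0119). *Cdkn1a*, the p21 inhibitor of the cell cycle, read 33.3, 32.9, 39.8 and 81.3 CPM in WT against 61.0, 75.9, 114.2 and 139.8 CPM in KO (log2 fold change 1.09 ± 0.10, adjusted *P*=0.000447, unblocked 0.624). WT library 4 lay above 2 KO libraries. *Phlda3*, an inhibitor of AKT, and the p53 relative *Trp63* rose by 0.64 ± 0.057 and 0.74 ± 0.098 on the log2 scale (adjusted *P*=0.000382 and 0.00325, unblocked 0.812 and 0.418). *Ccng1*, the most abundant member and a p53 target, did not pass and was in the opposite direction (log2 fold change -0.27 ± 0.055, adjusted *P*=0.0205). Outside the list, the decoy receptor *Tnfrsf23* rose by 0.77 ± 0.086 (adjusted *P*=0.00133, unblocked 0.0532).

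Of 24 tubulins and intermediate filament genes, 2 rose, none fell and 20 were higher in KO (list median 0.20). *Krt18*, a keratin of simple epithelia, had the highest log2 fold change of the 98 genes, 2.64 ± 0.16 (adjusted *P*=4.08e-05, unblocked 0.0119). It stood at 0.296, 0.330, 0.507 and 0.473 CPM in WT against 2.31, 1.65, 2.56 and 3.64 CPM in KO, low in absolute terms. *Tubb6*, a beta-tubulin raised in regenerating and dystrophic fibres, read 41.4, 45.7, 31.8 and 21.9 CPM in WT against 75.8, 68.8, 79.6 and 67.3 CPM in KO (log2 fold change 1.09 ± 0.13, adjusted *P*=0.00206, unblocked 0.146). *Des*, desmin, was more abundant at 1721 to 2558 CPM and was not called (log2 fold change 0.12 ± 0.058).

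Several other risers were low-abundance genes outside the lists. *Fam83g* rose by 2.38 ± 0.39 on the log2 scale, but KO library 1 (0.327 CPM) lay within the WT range of 0.245 to 0.398 CPM. *Anxa8*, an annexin, rose by 2.30 ± 0.23, *Slc26a7*, an anion transporter, by 1.56 ± 0.21, *Rassf7* by 1.46 ± 0.19, *Hsf2bp* by 1.34 ± 0.21 and the PDZ-domain gene *Pdzd3* by 1.25 ± 0.16. None of these 6 exceeded 3.42 CPM in any library, and their unblocked adjusted *P* ran from 0.0271 (*Pdzd3*) to 0.335 (*Fam83g*). *Il20rb*, a cytokine receptor chain, rose by 1.41 ± 0.18 (unblocked 0.123), from 2.10 to 2.44 CPM in WT to 3.67, 4.92, 8.10 and 8.42 CPM in KO. With *Ngfr* it was one of 2 risers among the 57 tested genes of the growth factor and receptor list (list median 0.038, none fell). That count leaves out *Gdnf*, given above, and *Gdf5*, which rose by 2.37 ± 0.39 on the log2 scale (adjusted *P*=0.00897, unblocked 0.0976). *Gdf5* stayed at or below 0.557 CPM in every library. *Timp1*, an inhibitor of matrix proteases, was the only one of 34 collagen and matrix genes called (log2 fold change 0.99 ± 0.14, adjusted *P*=0.00358, unblocked 0.183). *Mt2*, a metallothionein, was the only one of 23 glucocorticoid and clock genes called (0.82 ± 0.071, adjusted *P*=0.000325, unblocked 0.912), and it ranged from 2.44 to 11.0 CPM within WT.

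Among the 31 genes that fell, *Phka1*, the muscle regulatory subunit of phosphorylase kinase, was the only one of 24 glycolysis and glycogen genes called, and 20 of the 24 were lower (list median -0.16). It read 268.7, 251.8, 445.7 and 553.7 CPM in WT against 105.9, 153, 281.7 and 439.7 CPM in KO (log2 fold change -0.76 ± 0.12, adjusted *P*=0.0085, unblocked 0.885). *Mical2*, an actin-oxidising enzyme, fell from 58.9 to 82.8 CPM to 24.6 to 46.9 CPM without overlap (log2 fold change -0.97 ± 0.085, adjusted *P*=0.000342, unblocked 0.243). *Car2*, carbonic anhydrase 2, fell from 7.71 to 9.73 CPM to 3.82 to 5.93 CPM, also without overlap (-0.86 ± 0.073, adjusted *P*=0.000325, unblocked 0.122). *Nt5c1a*, which makes adenosine from AMP, fell by 1.13 on the log2 scale (SE 0.16) and *Cacna2d4*, a calcium channel subunit, by 1.54 (SE 0.21), with unblocked adjusted *P* of 0.123 and 0.517.

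The noncoding *B230312C02Rik* had the smallest adjusted *P* among the fallers after *Mtm1*. It read 9.75, 8.73, 18.4 and 23.7 CPM in WT against 3.03, 2.36, 4.64 and 9.28 CPM in KO (log2 fold change -1.71 ± 0.099, adjusted *P*=2.66e-05, unblocked 0.49). *Erfe*, the hormone erythroferrone, also made by muscle under the name myonectin, fell by 0.94 on the log2 scale (SE 0.15), and *Mettl21e*, a muscle methyltransferase, by 0.90 (SE 0.15), with unblocked adjusted *P* of 0.237 and 0.95. *Mybphl*, a relative of the myosin-binding proteins, had the largest decrease after *Mtm1* (log2 fold change -1.77 ± 0.20, adjusted *P*=0.00148, unblocked 0.122), at 0.635, 0.709, 1.08 and 0.814 CPM in WT against 0.149, 0.233, 0.376 and 0.196 CPM in KO. *Gm43302* (-1.40 ± 0.20, unblocked 0.0658) and *Crybb1*, a crystallin (-1.14 ± 0.19, unblocked 0.0532), were about as low in level, and in all 3 genes the groups did not overlap. Decreases were also called for *Cntn1*, an axonal adhesion molecule (-1.27 ± 0.17, unblocked 0.626), the pseudogene *BC023105* (-1.28 ± 0.15, unblocked 0.558), *Lrp2bp* (-0.81 ± 0.11, unblocked 0.517), *Glb1l2* (-0.77 ± 0.11, unblocked 0.781) and *Angptl7*, a secreted protein of connective tissue (-1.10 ± 0.15, unblocked 0.749). The other 8, *Rmi2*, *Gbp10*, *Map2k6*, *Atp8a2*, *Cib2*, *Kcng4*, *Pcolce2* and *Aldh1l1*, had log2 fold changes between -0.75 and -0.62 and unblocked adjusted *P* from 0.124 to 0.777. *Angptl7* ran from 4.86 to 23.9 CPM within WT, so its fall is seen only between libraries of the same number.

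Genes imprinted in the *Dlk1*-*Dio3* interval (chr12:109452823-110281097) formed a neighbouring group of risers, chosen after their values were seen. Of 118 genes of the interval in the table, 9 were tested, all 9 were higher in KO, and 5 were called, against 0.623% of all genes. *Meg3*, a maternally expressed noncoding RNA, read 544.7, 590.3, 245 and 274 CPM in WT against 984.7, 842.7, 495.1 and 468.6 CPM in KO (log2 fold change 0.79 ± 0.074, adjusted *P*=0.000464, unblocked 0.755). *Rian* (0.59 ± 0.095) and *Mirg* (0.77 ± 0.067), noncoding RNAs of the same allele, and *Dlk1* (0.68 ± 0.11) and *Rtl1* (2.01 ± 0.29), expressed from the paternal allele, rose as well, with unblocked adjusted *P* of 0.882, 0.755, 0.847 and 0.842. *Rtl1* had 2.09, 5.36, 0.385 and 0.170 CPM in WT against 16.9, 12.0, 1.81 and 0.393 CPM in KO. All 5 were high in numbers 1 and 2 and low in numbers 3 and 4 in both genotypes, the order that *Myh8* and *Myh3* also had. In WT muscle the 5 were lower at P21 than at P1, with log2 differences from -3.91 (*Rian*) to -12.1 (*Rtl1*).

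Apart from *Mtm1*, none of 30 tested genes of 3-phosphoinositide turnover was called (list median -0.055). None of 12 dynamin, amphiphysin and other centronuclear myopathy genes was called (median -0.13). *Dnm2*, dynamin 2, read 51.4, 52.2, 51.3 and 47.8 CPM in WT against 52.0, 55.4, 50.7 and 54.5 CPM in KO, and its log2 fold change was 0.068 ± 0.045 (adjusted *P*=0.424, unblocked 0.916). The groups overlapped. *Bin1*, amphiphysin 2, had a log2 fold change of 0.15 ± 0.053 with the block (adjusted *P*=0.141).

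The energy metabolism, autophagy, integrated stress response and immediate early lists held no called gene other than *Phka1*. None of 79 nuclear-encoded respiratory chain genes (median -0.015), 13 mitochondrially encoded genes (median -0.15), 25 fatty acid genes (median -0.043), 33 ubiquitin ligase, autophagy and lysosome genes (median -0.0029), 21 integrated stress response genes (median 0.014) or 19 immediate early genes (median 0.14) was called by edgeR with or without the block. All annotated genes of the mitochondrial genome, not only these 13, together took 7.07% to 9.32% of counts, with the genotypes overlapping. None of 19 myogenic regulators reached the fold threshold with an adjusted *P* under 0.01 (median 0.045). *Mef2c* among them passed the *P*-value threshold only, at 517.5 to 565.8 CPM in WT and 733.4 to 857.1 CPM in KO (log2 fold change 0.54 ± 0.050, adjusted *P*=0.000447, unblocked 0.0575). None of 30 cell cycle genes was called although 27 were higher (median 0.16, SD of the median over the 4 pairs 0.41).

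**Figure D4:**
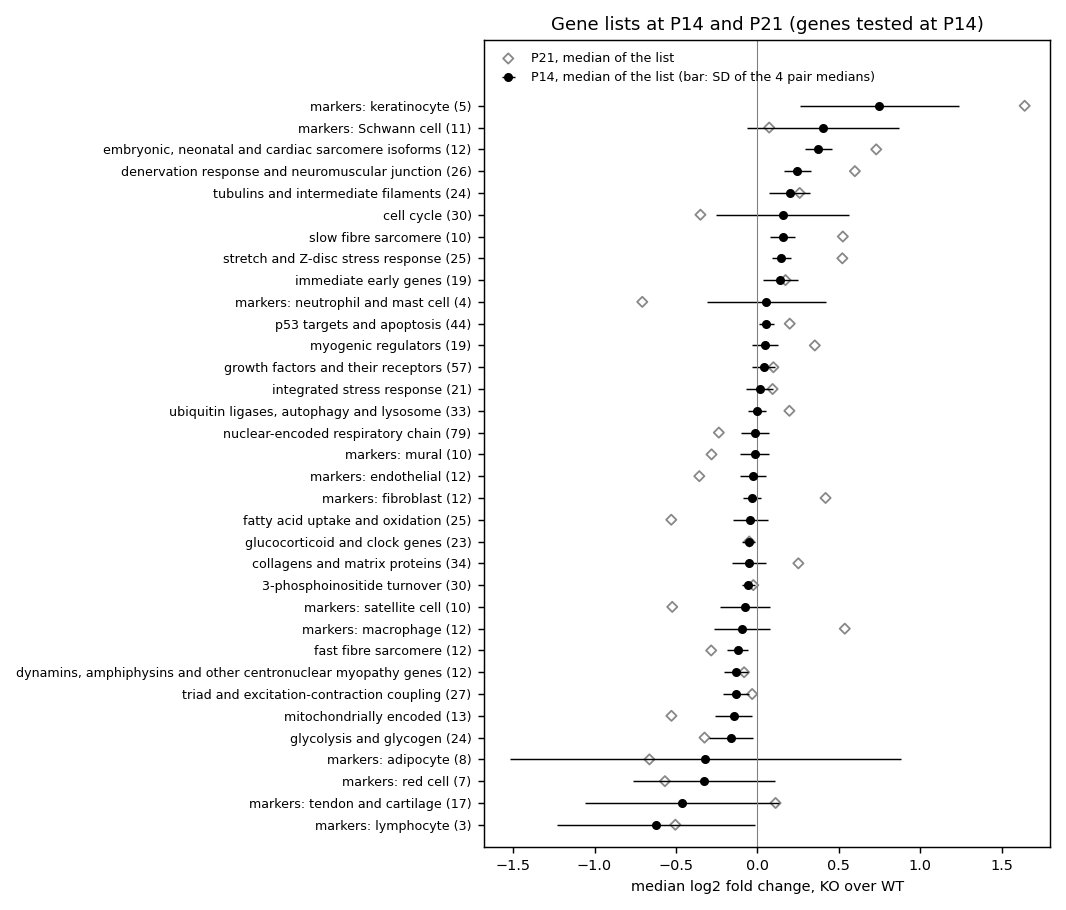
Median log2 fold change (KO over WT) of each gene list at P14 (black, bars are the SD of the medians of the 4 same-numbered pairs) and at P21 (open diamonds), with the number of genes tested at P14 in brackets. Embryonic sarcomere (0.37) and denervation (0.25) lists lie right of 0 at P14 by more than the SD over pairs and lie further right at P21 (0.73 and 0.60). So do the keratinocyte, slow fibre, stretch, tubulin, immediate early and p53 lists.

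Markers of other cell types were checked beside these groups. Of 10 satellite cell markers, 2 fell: *Calcr*, the calcitonin receptor of quiescent satellite cells (2.94 to 4.03 CPM in WT, 1.70 to 2.51 CPM in KO, log2 fold change -0.75 ± 0.12, adjusted *P*=0.0082, unblocked 0.21), and *Chodl* (15.8 to 20.9 CPM against 9.27 to 12.2 CPM, -0.74 ± 0.065, adjusted *P*=0.000342, unblocked 0.0788). The list median was -0.077, and the summed level was 235 to 266 CPM in WT and 236 to 267 CPM in KO. All 11 Schwann cell markers were higher in KO and none was called (median 0.40). Their sum was 526 to 810 CPM in WT and 556 to 1170 CPM in KO, highest in KO libraries 1 and 2. Of the keratinocyte list, 5 of 12 genes were tested, all higher (median 0.75), and *Trp63* was called. *Krt5*, *Krt14* and 5 other defining genes did not pass the filter on low counts. The summed level was 12.0 to 17.3 CPM in WT and 15.9 to 26.6 CPM in KO. The part of these cells in the values of *Krt18*, *Ngfr* and *Trp63* was not tested.

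In the tendon and cartilage list *Cilp* was the only gene called, while 13 of 17 members were lower in KO (median -0.46). Fibroblast (12 genes, median -0.034), endothelial (12, -0.027), mural (10, -0.017), macrophage (12, -0.096), neutrophil and mast cell (4 of 8 tested, 0.055) and lymphocyte markers (3 of 8 tested, -0.62) held no called gene. Nor did those of adipocytes (8 of 8 tested lower, median -0.32) and red cells (7 of 7 lower, -0.33), whose sums overlapped between genotypes, at 136 to 352 against 123 to 319 CPM and 402 to 688 against 302 to 485 CPM. Over the 19 lists with no call, leaving aside the sex-linked genes used to check the labels, 92 of 340 genes had an unadjusted *P* under 0.05 in edgeR with the block (27.1%, against 21.8% of all genes) and 16 without it (4.71%, against 6.82%). With the block the share ran from 0 of 4 neutrophil and mast cell markers to 9 of 11 Schwann cell markers. DESeq2 called 1 gene of these lists in either fit, *Egr3* of the immediate early list.

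The genes that rose at P14 were mostly higher in KO at later ages, in libraries that had no part in choosing them. Values and DEGs at P1, P21 and P35 come from fits without the replicate block. Of the 67, 66 were tested at P21, 65 had the same direction, and 45 (68.2%) were DEGs higher in KO, against 3.18% of all genes tested at that age (4.67% in either direction). Of 65 tested at P35, 62 had the same direction and 49 (75.4%) were DEGs, against 8.49% (16% in either direction). Their median log2 fold change, 0.885 in the P14 libraries, was 2.03 in those of P21 and 2.72 in those of P35. The first value is that of the libraries on which the genes were chosen. At P1, 8 genes were DEGs (0.0442%), all higher in KO, against 5 (0.0318%) at P14 in the same fit without the block. Of the P14 risers, 31 of 65 had the same direction at P1, none was a DEG in edgeR and the median was -0.013. Of the 65, 11 had an unadjusted *P* under 0.05 in edgeR, as did 1978 of all 18100 genes tested at P1.

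The genes that fell were less uniform. Leaving out *Mtm1*, 29 of 30 were tested at P21, 26 had the same direction and 13 (44.8%) were DEGs lower in KO, against 1.5% of all genes. At P35, 25 of 28 had the same direction and 14 (50%) were DEGs, against 7.52%. The median log2 fold change was -0.934 at P21 and -1.43 at P35. *C130080G10Rik* and *Actc1* fell furthest at P21, with log2 fold changes of -5.82 and -3.36. *Mettl21e*, lower at P14, was a DEG in the opposite direction at P1 (log2 fold change 0.94).

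**Figure D5:**
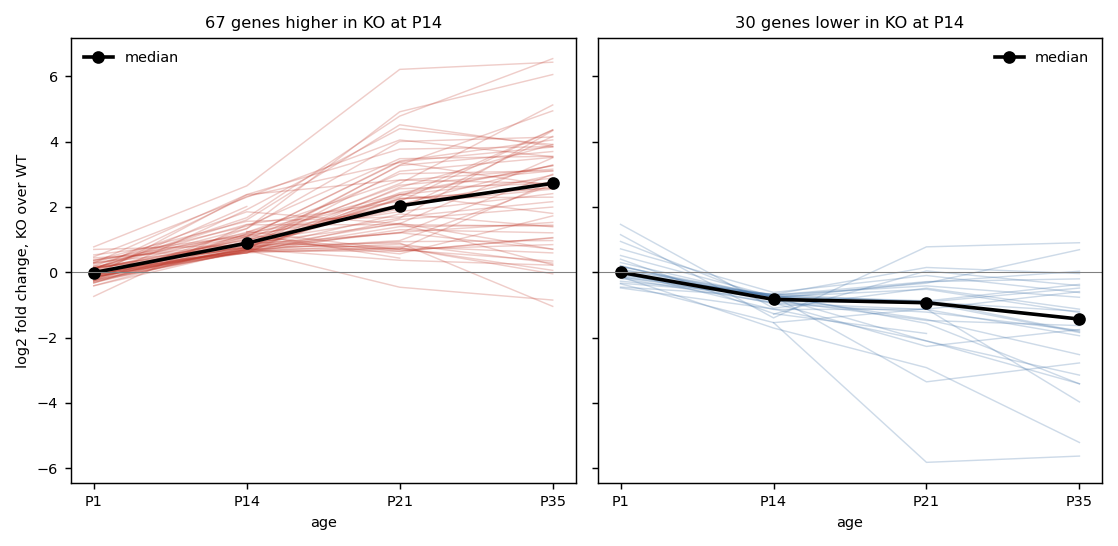
Log2 fold change (KO over WT) at P1, P14, P21 and P35 of the genes called with the replicate block at P14, 67 higher in KO (left, red) and 30 lower, without *Mtm1* (right, blue), with the median in black. The medians are near 0 at P1 and move away from 0 with age, to 2.72 and -1.43 at P35. P14 values are from the fit with the block, and those of the other ages from fits without it.

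Some P14 risers were not DEGs at P35. *Htra4*, a DEG at P14 in both fits, had a log2 fold change of 1.48 at P21 and 0.23 at P35 (adjusted *P*=0.022 and 0.691). *Nog*, the BMP antagonist noggin, went from 0.71 ± 0.12 at P14 (unblocked 0.122) to 0.37 and 0.22 at P21 and P35, and *Phlda3* from 0.64 ± 0.057 to 0.86 and 0.28. *Npr3*, the clearance receptor for natriuretic peptides, was 0.83 ± 0.11 at P14 (unblocked 0.123) and -1.05 at P35 (adjusted *P*=0.0692), and *Dlk1* was 0.68 ± 0.11 at P14 and -0.85 at P35 (adjusted *P*=0.0181). These 4 were named after their values were seen, and their changes between P14 and P35 were not tested.

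The difference of the KO effect between P21 and P14 was tested as an interaction, and 79 of 18583 genes passed (0.425%), 70 with a higher and 9 with a lower log2 fold change at P21. Of the 98 genes, 17 were among them, 16 higher and 1 lower. They included *Cpne2* (difference 2.30 ± 0.22, adjusted *P*=3.49e-07), *Eda2r* (2.88 ± 0.26, adjusted *P*=1.22e-07), *Rrad* (3.59 ± 0.47), *Sln* (3.11 ± 0.61), *Cilp* (2.46 ± 0.32), *Mustn1* (1.54 ± 0.28) and *Runx1* (1.58 ± 0.31). The lower one was *C130080G10Rik* (-4.26 ± 0.71). Between P14 and P1, 3 genes passed (0.0161%): *Cilp* (2.20), *Eda2r* (1.53) and *Mtm1* (-1.34). The log2 fold change of *Mtm1* at P1 was -0.98 ± 0.17, with adjusted *P*=0.0668.

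Age itself gives a scale for these genes. Between WT muscle at P1 and P21, none of whose libraries enters the P14 comparison, 33.9% of all genes tested were lower and 26.9% higher at P21. Of the 67 risers 50 (74.6%) were lower at P21, and 6 were higher, *Igfn1*, *Pdzd3*, *Gm12185*, *Ankrd2*, *Nlrc3* and *Phlda3*. Of 29 fallers tested 20 (69%) were higher at P21, and 3 were lower, *Chodl*, *Mettl21e* and *Cntn1*. Thus the P14 KO level lay, for most called genes, on the side of the younger WT muscle. *Mybpc2*, which fell in KO, rose with age in WT by 4.10 on the log2 scale, and *Myh3* fell with age by 8.09. *Cilp* and *Car2* moved little with age in WT, by -0.18 and 0.22, while their P14 log2 fold changes were 1.92 and -0.86. Whether KO mice at P14 lagged in age-related change was not tested, since body weight and stage are not in the labels.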

How the data were processed

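RNA of TA muscle was made into polyA-selected, strand-specific libraries. Per the labels and methods, the authors aligned reads to GRCm38 with STAR 2.6.1 and deposited unscaled expected counts per gene (RSEM 1.2.22). HTSeq is also named as counter. The annotation release and strand setting are not given in the sources used here. Of 54838 genes, 28140 had no count in the 8 libraries. Counts were rounded, and KO was compared with WT in edgeR 4.0.16 under R 4.3.3: filterByExpr, TMM and the two-sided quasi-likelihood test, with *P* adjusted by Benjamini-Hochberg over every gene tested. A DEG needed an adjusted *P* under 0.01 and a fold over 1.5. SE is that of the log2 fold change.

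The test with replicate number as a block was read beside it. Libraries of one number deviated together from their genotype means on log2 CPM with a prior count of 2. The r was 0.42, 0.47, 0.30 and 0.73 for numbers 1 to 4, each over 0.1, so the numbers were taken to pair WT with KO. The mean r across numbers was -0.14. It is no separate evidence, since deviations from a genotype mean cancel within that genotype, which makes it negative when same-number values are positive. WT library 2 and KO library 1 correlated best with each other rather than with their own number. This pairing comes from the data, since the labels give only numbers. DESeq2 1.42.0, other scalings, filters and thresholds, and leaving libraries out were alternatives. The KO effect was compared between ages as an interaction over all 32 libraries, at an adjusted *P* under 0.01.

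The named genes are *Mtm1*, *Dnm2*, *Runx1*, *Tubb6*, every DEG without the block, the 15 highest and 15 lowest blocked calls with 4 concordant pairs and at least 1 CPM, and up to 4 per list by level or *P*, and others were picked by their values. The genes, lists and tests were chosen with earlier results of these data known. Symbols and coordinates came from the GENCODE annotation of GRCm38. The scripts were tested on simulated counts. *P*-values measure only the spread between these samples.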

Additional observations from a re-analysis of the deposited data

Results flagged for a closer look

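Among 35 named genes, 8 had a KO effect that differed between P21 and P14 by the interaction test (log2 difference, P21 minus P14). It was 1.58 for *Runx1*, 2.46 for *Cilp*, 1.54 for *Mustn1*, 3.11 for *Sln*, 2.88 for *Eda2r*, 2.66 for *Hsf2bp*, 3.59 for *Rrad* and -4.26 for *C130080G10Rik*. Between P14 and P1 the effect differed for *Mtm1* (-1.34), *Cilp* (2.20) and *Eda2r* (1.53).

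In 70 groups of 4 libraries (35 genes in WT and in KO at P14), 3 had 1 library apart from the others, measured as its gap to the nearest library over the range of the group on log2 CPM. Chance gives about 1 in 20 such groups. WT library 4 was low for *Runx1* (0.833), and library 4 of both genotypes was low for *Cntn1* (0.912 in WT, 0.937 in KO).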

How the results depend on the processing

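Without the block, 5 DEGs became 53 with DESeq2, 98 with the replicate block, 103 with the block in DESeq2, 10 with no filter on low counts and 11 at an adjusted *P* under 0.05. Leaving out 1 library gave 1 to 4, and the other settings stayed within 1.5 times. With the block, the 98 became 178 at an adjusted *P* under 0.05. Leaving out a same-numbered pair gave 92, 42, 52 and 101 calls for numbers 1 to 4, with 71, 37, 48 and 72 of the 98 kept and all 98 in the same direction. These block settings, like library totals, were chosen after seeing the data. The 79 genes whose KO effect differed between P21 and P14 became 222 with DESeq2 and 30 to 100 with 1 library left out. They became 77 with the replicate block within age. The 3 between P14 and P1 became 11 with DESeq2, 8 with the 16 libraries of these ages alone and 1 with the replicate block within age, and 2 to 3 with 1 library left out. Of the named genes, *Mettl21e* changed sign without WT replicate 4 and without the block (log2 fold changes from -1.90 to 0.0063 over the libraries left out). Library totals moved the median of 16 of 35 lists by more than its spread over pairs. The causes were not tested. Genes of few counts are limited by depth.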
